A study of Mus musculus with 9 samples.

Results

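Bone morphogenetic proteins (BMPs) are secreted ligands of the transforming growth factor beta (TGF-beta) family, and cells that receive them switch on a small set of direct target genes. The 9 such genes described here were taken by symbol from a fixed list of direct BMP targets: the ID genes Id1, Id2, Id3 and Id4, the inhibitory SMAD genes Smad6 and Smad7, Smad9, Bambi and Atoh8. All 9 were found among the 27179 gene IDs of the matrix, and all 9 passed the filter on low values that left 15832 genes for testing (4 or more libraries with a normalized count of 10 or higher).

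BMPs bind paired type I and type II receptors, which phosphorylate SMAD1, SMAD5 and SMAD9. These enter the nucleus with SMAD4 and bind target promoters and enhancers. ID proteins are helix-loop-helix proteins without a DNA-binding basic region, which hold E proteins in inactive dimers and so delay differentiation, while SMAD6, SMAD7 and BAMBI dampen the receptor complex and close a negative feedback loop. In bone and marrow stroma these genes are widely read as a measure of BMP signalling.

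The libraries were made from polyadenylated RNA of mouse cells sorted from the fibrous tissue around a tibial implant 2 weeks after surgery. Every mouse carried Lepr-CreERT, a Cre recombinase driven by the leptin receptor gene and activated by tamoxifen, and the Tdtomato reporter, and cells negative for lineage markers (Lin-) and positive for tdTomato were sorted. The 4 control libraries had the genotype Lepr-CreERT;Tdtomato (Cre only, littermates), and the 5 conditional knockout (cKO) libraries had Lepr-CreERT;Tdtomato;Grem1fl/fl, which removes Grem1, the gene of a secreted BMP antagonist, from cells in which Lepr-driven Cre is active. The study asked how the transcriptome of these cells differs without Grem1. The labels give no sex or age and do not say whether every library stands for its own animal, so each p-value reflects the spread among libraries, which may be technical. All values are normalized counts, in which the reads of a gene are scaled by a size factor of the library.

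Grem1 itself, the check of the labels, ranged from 356 to 736 among controls (normalized counts) and from 46.4 to 133 among knockouts, with 60.8 in cKO replicate 5. Library depth was 44.8 to 53.4 M recovered reads in controls, 76.3 to 87.2 M in cKO replicates 1 to 4 and 43.5 M in cKO replicate 5. Depth and genotype therefore cannot be told apart except through cKO replicate 5, which was as shallow as the controls. That library stands apart from the other 4 knockouts for the genes described here, and the fold changes of the 9 genes are given with and without it. Since it was singled out on these same genes, p-values without it are a description and not independent support. The 6 markers of LEPR-lineage stroma (Lepr, Cxcl12, Pdgfra, Pdgfrb, Col1a1 and Prrx1) were above 0 in every library and together took 3.96% to 4.4% of all normalized counts among controls and 2.52% to 7.93% among knockouts. Col1a1 alone made up 85.7% to 97.2% of that sum, so it says little of the other 5. Lepr had 18730.3, 5379.9, 40594 and 935 in the controls and 15785, 13109.8, 9822, 13845 and 1347 in cKO replicates 1 to 5, and Cxcl12, a chemokine gene of marrow stroma, had 112676, 55047, 228864 and 18900.4 in the controls and 81136, 64954, 93756, 70429 and 23905 in the knockouts. Both were thus lowest among the knockouts in replicate 5 and highest among the controls in replicates 1 and 3. So were most of the 9 genes. Pdgfra, of the same list, did not keep that order of the controls, with 11382, 14268, 13648 and 16115 in replicates 1 to 4. It rose 2.12-fold (limma adjusted p = 0.0229). Its lowest knockout was replicate 5 (18845), which was still above every control. The part of these stroma genes in the results was not tested. In bulk samples such as these, fewer cells of a type and less RNA per cell cannot be told apart.

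The 250 bases before the transcription start are printed for Id3, Id4, Smad6 and Atoh8, the genes on which the comparison turns: in each, cKO replicates 1 to 4 were all above every control. They come from RefSeq promoter windows of build GRCm38.p6, of which those of 6 of the 9 genes were used, matched by gene ID. No window was found for Id1. The search left out a whole chromosome, so the lack of Smad7 and Bambi here does not mean that they had no window. The authors' build was mm39, and no coordinate of theirs is used. Each is written 5′ to 3′ on the strand of the gene, at chr4:136143572-136143821 (plus strand), chr13:48260866-48261115 (plus), chr9:64022060-64022309 (minus) and chr6:72235578-72235827 (minus). Capitals mark 3 motifs known from SMAD binding, searched on both strands with overlaps allowed: GGCGCC, a GC-rich BMP SMAD element, its variant GGAGCC, which reads as GGCTCC on the opposite strand, and the palindrome GTCTAGAC.
Id3: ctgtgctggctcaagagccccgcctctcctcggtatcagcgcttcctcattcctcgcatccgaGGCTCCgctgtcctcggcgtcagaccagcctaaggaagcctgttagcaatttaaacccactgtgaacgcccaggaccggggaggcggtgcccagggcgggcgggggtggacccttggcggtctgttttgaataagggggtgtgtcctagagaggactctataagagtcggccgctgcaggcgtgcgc
Id4: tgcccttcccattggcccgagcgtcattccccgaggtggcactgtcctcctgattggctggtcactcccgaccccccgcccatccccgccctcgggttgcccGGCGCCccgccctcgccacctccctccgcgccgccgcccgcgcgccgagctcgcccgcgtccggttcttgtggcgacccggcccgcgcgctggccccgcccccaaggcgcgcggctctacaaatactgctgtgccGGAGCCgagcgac
Smad6: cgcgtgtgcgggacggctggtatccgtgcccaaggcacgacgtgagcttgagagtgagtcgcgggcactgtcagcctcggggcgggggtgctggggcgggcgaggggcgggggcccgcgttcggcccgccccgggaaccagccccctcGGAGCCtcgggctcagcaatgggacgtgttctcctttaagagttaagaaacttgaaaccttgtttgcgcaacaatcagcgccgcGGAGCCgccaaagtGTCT
Atoh8: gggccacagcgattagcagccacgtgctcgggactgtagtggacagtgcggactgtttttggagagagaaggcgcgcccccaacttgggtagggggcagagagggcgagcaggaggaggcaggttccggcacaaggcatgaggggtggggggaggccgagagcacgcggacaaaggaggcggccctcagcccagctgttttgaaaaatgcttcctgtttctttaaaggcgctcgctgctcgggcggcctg

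Id4 held GGCGCC, 148 bases upstream of the start, and GGAGCC, 13 bases upstream. Smad6 held GGAGCC at 102 and 18 bases upstream and GTCTAGAC across the start, with 4 bases before it (in capitals) and 4 after it, beyond the printed stretch. Id3 held GGCTCC at 187 bases upstream, and Atoh8 held none of the 3 motifs. Among 32851 RefSeq windows of 300 bases (250 before and 50 after a start) 11.9% held GGCGCC, 30.8% GGAGCC and 0.213% GTCTAGAC. Of the 2 other matched genes, Id2 and Smad9 each held GGCGCC and GGAGCC. A match of letters is a description of the window, not evidence of binding.

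Atoh8, Id4, Id3 and Smad6 had higher values in cKO replicates 1 to 4 than in any control, by 3.5-fold, 2.78-fold, 1.72-fold and 2.18-fold on geometric means of the normalized count plus 1. In cKO replicate 5 all 4 lay inside the range of the controls. Over all 9 libraries none of the 9 genes passed the test (limma on log2(normalized count + 1), Benjamini-Hochberg adjusted p under 0.05 over all genes tested), against a background of 7.48% of genes called (4.61% higher and 2.87% lower). At an unadjusted limma p under 0.05 there were 3 of the 9 (Id3, Id4 and Atoh8), beside 26.9% of all genes tested. The quasi-likelihood test of edgeR, run on the recovered reads, called 0 of the 9, where it called 4.96% of all genes (3.26% higher). DESeq2 called 2 of the 9 as higher (Atoh8 and Id4), where it called 16.5% of all genes (10.2% higher). The fold change lay above 0 for 8 of the 9 genes, with Smad9 the exception, where 49.7% of all genes tested lay above 0. The median of the 9 was 0.52 on the log2 scale, beside -0.0039 over all genes tested.

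**Figure D1:**
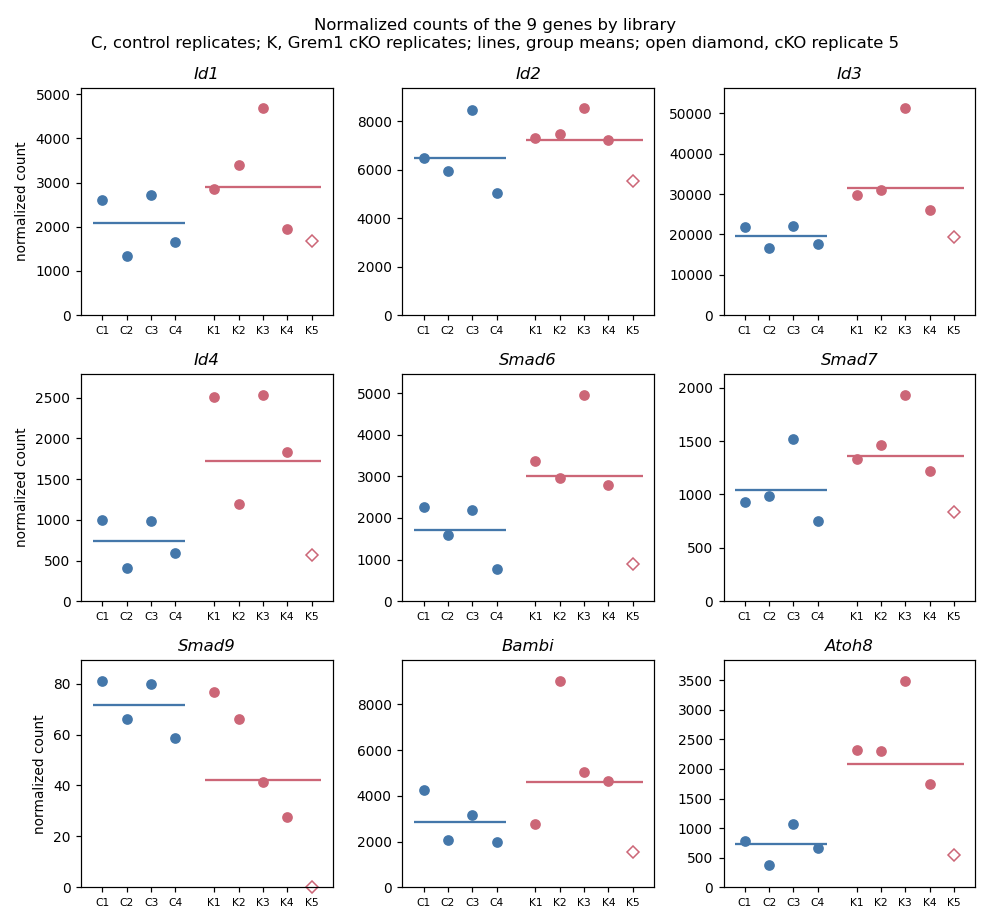
Normalized counts (vertical axis, from 0) of the 9 genes in each library, with control replicates C1 to C4 in blue, cKO replicates K1 to K5 in red, group means as lines and cKO replicate 5 as an open diamond. For Id3, Id4, Smad6 and Atoh8 the points K1 to K4 lie above all 4 controls, and for every gene K5 is the lowest cKO value.

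Id1, an inhibitor of E proteins and the most used readout of BMP receptor activity, had 2613, 1342, 2713 and 1654 normalized counts in control replicates 1 to 4. In cKO replicates 1 to 5 it had 2855, 3387, 4679.8, 1949 and 1671. Replicates 1 to 3 of the knockout were above every control, while replicates 4 and 5 fell among the controls. Controls averaged 2081 ± 686 (SD, n = 4) and knockouts 2909 ± 1206 (SD, n = 5), and the log2 fold change of 0.45 (SE 0.33, 95% interval -0.28 to 1.17, limma adjusted p = 0.411) did not pass the test. Leaving out cKO replicate 5, it was 0.62 (limma adjusted p = 0.187), and cKO replicate 5 alone differed from the controls by -0.25.

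Id2, which also restrains E proteins and is abundant in innate lymphoid cells, had the smallest upward difference. Its values were 6465, 5937, 8441 and 5042 in the controls and 7308, 7481, 8525, 7237 and 5541 in cKO replicates 1 to 5. The groups overlapped throughout, since control replicate 3 stood at the level of the highest knockout. The difference was 0.17 on the log2 scale (SE 0.17, 95% interval -0.21 to 0.54, limma adjusted p = 0.55). Leaving out cKO replicate 5, it was 0.26 (limma adjusted p = 0.257). The coefficient of variation was 14.9% in the knockouts, the smallest of the 9 genes there, and 22.2% in the controls, where Id3 (14.7%) and Smad9 (15.1%) varied less.

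Id3, the most abundant of the ID genes in these cells, had 21854, 16559, 21997 and 17488 in the controls. Its cKO values were 29644, 31051, 51232, 25953 and 19335 in replicates 1 to 5. The first 4 knockouts exceeded the highest control, with replicate 3 far above the rest, and replicate 5 lay between the controls. On the log2 scale the difference was 0.63 (SE 0.25, limma adjusted p = 0.134), which did not pass. Among cKO replicates 1 to 4 it was 0.78 (SE 0.21, limma adjusted p = 0.0301), and in cKO replicate 5 alone it was 0.0014.

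Id4, an ID gene known from neural and osteoblast precursors, was the least abundant ID gene per kilobase. Controls had 993, 403, 982 and 588, and cKO replicates 1 to 5 had 2506, 1188, 2537, 1826 and 563. Knockout replicates 1 to 4 were above all controls, and replicate 5 was below 3 of them. The difference over all libraries was 1.12 on the log2 scale (2.17-fold, SE 0.47, limma adjusted p = 0.154). Without cKO replicate 5 it was 1.47 (SE 0.35, limma adjusted p = 0.0191), and cKO replicate 5 alone differed by -0.3. In the authors' deposited table Id4 had a log2 fold change of 1.22 and an adjusted p of 0.0489. Its exons share 4.44% of their bases with 2 genes of the opposite strand in the GENCODE M21 annotation, A330033J07Rik and Gm49291, and the strand setting of the counting is not given; the other 8 genes share none.

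Smad6, the inhibitory SMAD that acts mainly on BMP type I receptors, had 2269.8, 1602, 2183 and 774 in the controls and 3367, 2963, 4963, 2795 and 897 in cKO replicates 1 to 5. Knockout replicates 1 to 4 stood above every control, while replicate 5 was near the lowest control. The log2 difference was 0.74 (SE 0.48, limma adjusted p = 0.353) with all libraries and 1.12 (SE 0.34, limma adjusted p = 0.047) without cKO replicate 5. That replicate alone differed from the controls by -0.81.

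Smad7, which blocks receptors of both the BMP and the TGF-beta branch and recruits ubiquitin ligases to them, was above its controls in 1 knockout. Controls had 929.6, 982, 1518 and 749, and cKO replicates 1 to 5 had 1331, 1466, 1936, 1224 and 833. Control replicate 3 was above 3 of the knockouts beside replicate 5, so the groups overlapped. The difference was 0.38 (SE 0.27, 95% interval -0.23 to 0.98, limma adjusted p = 0.409), and 0.54 without cKO replicate 5 (limma adjusted p = 0.144).

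Smad9 encodes a receptor-regulated SMAD of the BMP branch with weak activity of its own, itself induced by BMP. It was barely expressed, with 81.1, 66.2, 79.7 and 58.7 normalized counts in the controls and 76.5, 66.0, 41.4, 27.5 and 0 in cKO replicates 1 to 5. Its reads numbered 42 to 74 in controls and 38 to 104 in cKO replicates 1 to 4. Knockout replicates 1 and 2 lay within the range of the controls and replicates 3, 4 and 5 below it. The fitted difference of -1.65 (SE 1.2, limma adjusted p = 0.411) rests on the library without a read and on the pseudocount, and without cKO replicate 5 it was -0.52 (limma adjusted p = 0.496). A count of 0 in that library allows up to 3 reads, or 3.97 normalized counts, so that the mean of the controls was at least 18-fold higher than cKO replicate 5.

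Bambi encodes a pseudoreceptor that resembles a type I receptor without a kinase domain and is induced by BMP and Wnt signals. Its values were 4260.0, 2072, 3171 and 1989.8 in the controls and 2795, 9032, 5046, 4673 and 1543 in cKO replicates 1 to 5. Knockout replicate 2 stood highest, replicates 3 and 4 were above all controls, replicate 1 lay among the controls and replicate 5 below them. The difference was 0.52 (SE 0.46, 95% interval -0.50 to 1.53, limma adjusted p = 0.496), and 0.85 without cKO replicate 5 (limma adjusted p = 0.129). The knockouts had a coefficient of variation of 61.7%, against 37.2% in the controls.

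Atoh8, a basic helix-loop-helix transcription factor induced by BMP in endothelium, liver and cartilage, showed the largest upward difference of the 9. Controls had 792, 386, 1066 and 659.5, and cKO replicates 1 to 5 had 2319, 2298, 3488, 1751 and 539.5. The first 4 knockouts lay well clear of the controls, and replicate 5 was below 3 of them. Means were 726 ± 283 (SD, n = 4) and 2079 ± 1069 (SD, n = 5), and the log2 difference of 1.38 (2.6-fold, SE 0.5, limma adjusted p = 0.113) did not pass. For cKO replicates 1 to 4 it was 1.81 (SE 0.32, limma adjusted p = 0.00535), with -0.34 in that replicate alone. The authors' deposited table gives 1.52 with an adjusted p of 0.0142 for all 9 libraries. In the authors' deposited table Id3 has 0.69 with an adjusted p of 0.0606, and adjusted p lies between 0.229 and 0.669 for the 6 genes other than Id3, Id4 and Atoh8.

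**Figure D2:**
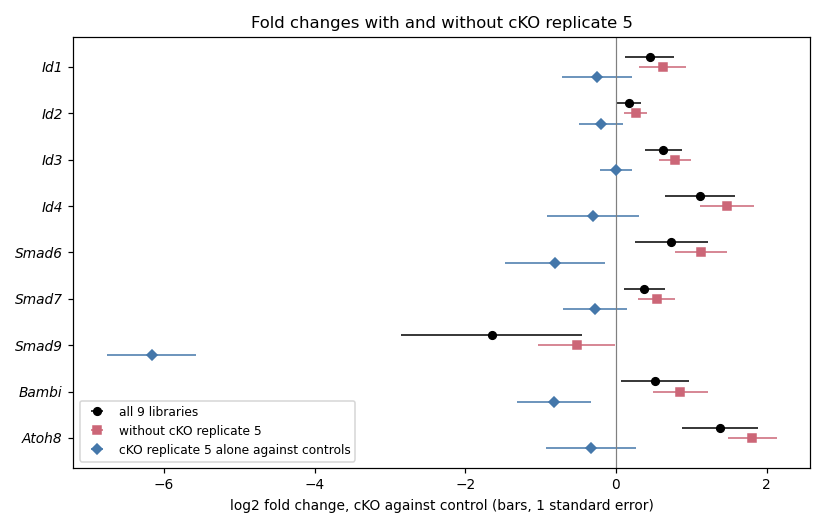
Log2 fold change of cKO against control (horizontal axis, on the log2(normalized count + 1) scale) for each gene, with bars of 1 standard error, for all 9 libraries (black), without cKO replicate 5 (red) and for cKO replicate 5 alone against the controls (blue). Without replicate 5 the values of Id4 and Atoh8 are 1.47 and 1.81, and in replicate 5 alone 8 of the 9 genes lie below 0.

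Without cKO replicate 5, 4 of the 9 genes were called higher (Id3, Id4, Smad6 and Atoh8) and none lower. Of all genes tested 12.4% were called higher and 10.1% lower, 22.5% together. That library was singled out on these same genes, and without it depth and genotype cannot be told apart, so these calls are a description. The 4 genes called higher were also the ones whose values in cKO replicates 1 to 4 were all above every control, a pattern found in 15.2% of genes tested. In the same 4 cKO replicate 5 was below the control median, which 4.6% of genes tested shared. In the comparison at like depth, cKO replicate 5 against the 4 controls, 1 of the 9 passed (Smad9, lower, limma adjusted p = 0.0489), where 0.524% of genes were called. With 1 knockout, its spread was estimated in the controls and taken to hold for both genotypes. All 9 genes were lower in cKO replicate 5 than in each of the other 4 knockouts, as were 30.5% of genes tested, and all 9 lay below the control median there, as did 49.7%.

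**Figure D3:**
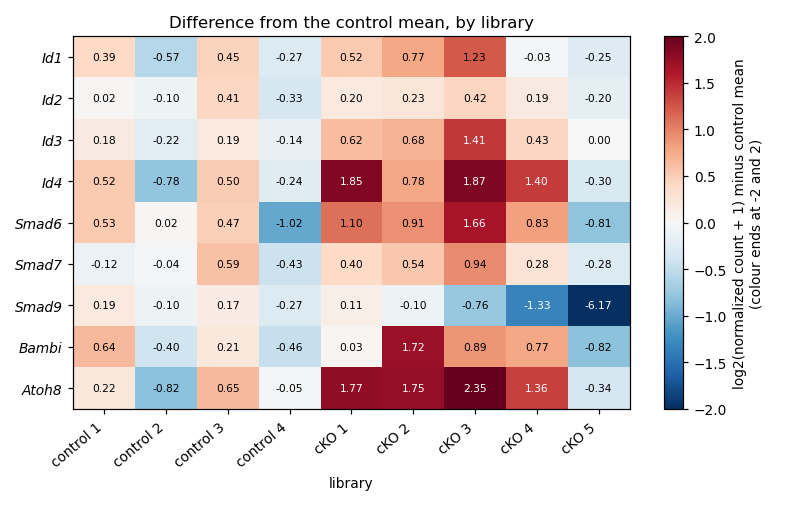
Difference of each library (columns) from the control mean of the same gene (rows), in log2(normalized count + 1) units, with the value printed in each cell and the colour ending at -2 and 2. In cKO replicate 3 Atoh8 stands at 2.35, Id4 at 1.87 and Smad6 at 1.66, and in cKO replicate 5 Smad9 stands at -6.17, from a count of 0.

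The controls differed among themselves as well. In 8 of the 9 genes (all but Smad7) control replicates 1 and 3 were both above replicates 2 and 4, an order found in 23.6% of genes tested. Those 2 libraries also held the most endothelial RNA: the 8 endothelial markers (Pecam1, Cdh5, Kdr, Tek, Emcn, Tie1, Cldn5 and Flt1) made up 0.185% and 0.249% of normalized counts there, 0.00724% and 0.0105% in control replicates 2 and 4, and 0.00695% to 0.0138% in the cKO libraries. No endothelial marker was at 0 in a control, and 1 was at 0 in each of 2 cKO libraries. Of the 8, 2 fell with no overlap between the groups, Flt1 10.1-fold and Cldn5 13.6-fold (limma adjusted p = 0.0468 and 0.0478). Of all genes tested 2.87% were called lower. Leaving out cKO replicate 5, 4 of the 8 fell, beside 10.1% of all genes tested, and without control replicates 1 and 3 none did. The mean log2 value of the 8 was 8.84 to 13.67 in controls and 7.03 to 8.78 in knockouts. Several of the 9 genes, among them Id1, Id3, Smad6 and Atoh8, are known from endothelium. Without control replicates 1 and 3 the differences were larger (0.86 for Id1, 0.81 for Id3, 1.63 for Id4, 1.24 for Smad6 and 1.81 for Atoh8). For these 5 genes limma adjusted p lay between 0.179 and 0.292 from the 2 controls left. The increase was fixed by the order of the controls, since the 2 left out were the higher ones. The part of endothelial RNA was not tested.

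The summed markers of muscle, Schwann cells and cartilage differed with genotype, while the sums for macrophages and pericytes overlapped between the groups, for macrophages only through cKO replicate 2. The 6 skeletal muscle markers summed to 0.000374% to 0.00158% of all normalized counts among controls and 0.0944% to 0.961% among knockouts, and all 6 rose; 3 of the 4 controls had at least 1 of them at 0. The 6 Schwann cell markers stood at 0.00496% to 0.0146% and 0.0275% to 0.0762%, with none at 0, and 5 of them rose. The 6 macrophage markers stood at 0.0063% to 0.0102% and 0.00141% to 0.0143%, with 1 or 2 at 0 in 4 cKO libraries, and 1 of them fell. Only cKO replicate 2 (0.0143%) was not below every control, and the other cKO libraries stood at 0.00141% to 0.00475%. The 6 pericyte and smooth muscle markers covered 0.148% to 0.22% and 0.135% to 0.186%, with none at 0. Of these Des rose 6.82-fold and Cspg4 fell 2.34-fold (limma adjusted p = 0.0132 and 0.0247). Over all genes tested 4.61% were called higher and 2.87% lower. Of the 6 cartilage markers 4 fell and none was at 0. They made up 2.5% to 6% in controls, 0.0506% to 0.253% in cKO replicates 1 to 4 and 1.59% in cKO replicate 5. Their sum in cKO replicate 5 was thus nearer the controls but still below each of them. For Id3, Id4, Smad6 and Atoh8, in contrast, the range of the controls took in cKO replicate 5. Leaving out that library, 6 of 6 cartilage markers fell, and the muscle and Schwann counts were again 6 and 5. Of the macrophage markers 2 then fell, and of the pericyte and smooth muscle markers 1 rose and 3 fell. In that setting 12.4% of all genes tested were called higher and 10.1% lower. Muscle markers made up 0.123% in cKO replicate 5 and 0.0944% in cKO replicate 3, the knockout with the highest Id1, Id3, Smad6 and Atoh8. Schwann cell markers made up 0.0323% and 0.0275% in the same 2 libraries. The part of these cell types in the levels of the 9 genes was not tested.

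**Figure D4:**
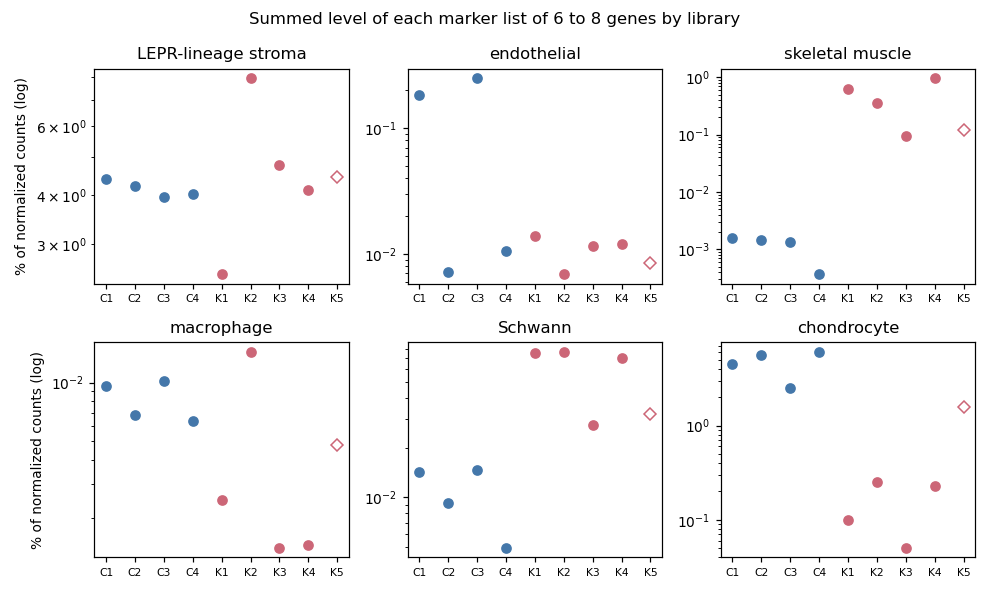
Share of normalized counts (percent, log axis) taken by the summed markers of 6 cell types in each library, with controls in blue, knockouts in red and cKO replicate 5 as an open diamond. Muscle markers separate all knockouts from all controls, endothelial markers are high in control replicates 1 and 3, and cartilage markers in cKO replicate 5 (1.59%) lie between the controls and the other knockouts.

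Levels of different genes were compared per kilobase of exon, with exon lengths from GENCODE M21. In controls Id3 led with 10873 ± 1595 normalized counts per kb (SD, n = 4), followed by Id2 with 2654 ± 590.1 and Id1 with 1794 ± 591. Bambi (566 ± 211), Smad6 (533 ± 215), Atoh8 (289.5 ± 113), Smad7 (231 ± 73.2) and Id4 (193 ± 76.4) followed, and Smad9 was last with 13.3 ± 2.01. The ranges of the 4 controls overlapped between neighbours in this order, except between Id3 and Id2, between Id1 and Bambi and between Id4 and Smad9. In cKO libraries Smad6 averaged 935 ± 454 per kb (SD, n = 5), Bambi 910.1 ± 561 and Id4 448 ± 222.

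Whether the 9 genes differed from each other in their response was tested on the log2 ratio of each of the 36 pairs within a library. With the pseudocount of 1 added to each value, this ratio hardly depends on the size factor where both counts are far above 1. By two-sided exact permutation of the genotype labels no pair passed after Benjamini-Hochberg adjustment over the 36 pairs (smallest adjusted p = 0.143). Groups of 4 and 5 libraries allow so few splits of the labels that no pair could pass on its own, however large its difference. The lack of a pass therefore cannot show that the genes were alike in their response. An unadjusted p under 0.05 was found for 10 pairs. Of those 10 pairs, 9 involved Smad9 or Atoh8. Smad9 was in 6 of them, and its count of 0 in cKO replicate 5 makes its ratios there depend on the size factor and the pseudocount. The ratio of Id1 to Atoh8 was 1.55 ± 0.25 in controls (log2 units, SD, n = 4) and 0.61 ± 0.59 in cKO libraries (SD, n = 5), a difference of -0.93 (exact permutation p = 0.0317, adjusted p = 0.143). The remaining pair was Id2 to Id3, with a ratio of -1.60 ± 0.20 and -2.06 ± 0.31 (difference -0.46, exact permutation p = 0.0317, adjusted p = 0.143). Smad6 to Smad7 differed by 0.36 between the groups (exact permutation p = 0.325, adjusted p = 0.434), and Id1 to Id3 by -0.18 (exact permutation p = 0.302, adjusted p = 0.434).

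Within the groups the 9 genes varied together. After the group mean was taken from each log2 value, Pearson's r over the 9 libraries ranged from 0.52 (Id4 and Bambi) to 0.96 (Id2 and Smad7), with a median of 0.77 over the 36 pairs. Against all genes tested the median r of the 9 genes was 0.011. Id1 and Id3 had 0.92 and Id4 and Atoh8 0.90. Without cKO replicate 5 the median over the pairs was 0.55 and the lowest value -0.019, so that part of this likeness rests on that library; all values share libraries and size factors and are a description.

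Immediate early and signalling genes were closest to Id1 by the same measure: Fos (0.989), Socs3 (0.987) and Junb (0.986), a transcription factor gene, a cytokine feedback gene and an AP-1 subunit gene. Dlx3, a homeobox gene induced by BMP, was closest to Id3 (0.993), and Hey1, a bHLH repressor induced by BMP and Notch, was closest to Atoh8 (0.984). For Smad7 it was Cited2 (0.972), a transcriptional co-regulator gene, for Id2 Porcn (0.979), the gene of the Wnt acyltransferase, and for Id4 Glul (0.98), the gene of glutamine synthetase. Smad6 was closest to Tm2d3 (0.982), Bambi to Mlip (0.982), a muscle gene, and Smad9 to Colec10 (0.982), a collectin gene. Leaving out cKO replicate 5, r was 0.949 or higher for all of these except Colec10, at 0.586. Each gene was picked for the highest r over all 9 libraries, so a high r without 1 of them was largely set by the choice. Next in order came Heph and Enpp4 for Id2, Rnf122 and Mxd4 for Id3, Aox1 and Dbp for Id4, Lama3 and Rps6ka5 for Smad6, Msl2 and Trappc3 for Smad7, Osgep and Sde2 for Smad9, mt-Rnr2 and ND1 for Bambi, and Map2 and Itga8 for Atoh8. Of these genes Hey1, Cited2, Mlip and Colec10 rose in the comparison of all 9 libraries (limma adjusted p = 0.0485, 0.0249, 0.0107 and 0.0496).

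Most other BMP target genes did not pass. Of 18 listed, 17 were tested, 2 rose (Hey1 and Tmem100) and 1 fell (Smoc1), where 4.61% and 2.87% of all genes tested did. The median of the 17 was 0.38 on the log2 scale. Hey1 had 666, 193, 685 and 531 in the controls and 3128, 3555, 5782, 2686 and 553 in cKO replicates 1 to 5, the same division of the knockouts as Atoh8 (5.34-fold, limma adjusted p = 0.0485). Tmem100, a membrane protein gene downstream of the BMP receptor ALK1, rose 2.2-fold (limma adjusted p = 0.0346), and cKO replicate 5 (5139) was there above every control. Smoc1, a matricellular protein gene with BMP-modulating activity, fell 8.85-fold (limma adjusted p = 0.0497) but stood at 21167 in cKO replicate 5, among the controls (13661 to 24066). Leaving out cKO replicate 5, 7 rose and 2 fell, where 12.4% of all genes tested were called higher and 10.1% lower. Without control replicates 1 and 3 none passed in either direction, where 2.13% of all genes tested did.

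Upstream of these targets, 2 of 10 tested BMP ligand genes rose, beside 4.61% of all genes tested: Bmp7 4.95-fold (limma adjusted p = 0.0184) and Bmp2 1.91-fold (limma adjusted p = 0.0493). Leaving out cKO replicate 5, the count was 6 higher and 1 lower, beside 12.4% and 10.1% of all genes tested. Among the antagonist genes, Fst (follistatin) rose 3.01-fold (limma adjusted p = 0.0187) and Sostdc1 (a BMP and Wnt inhibitor) rose from 15.7 ± 18.4 (SD, n = 4) to 1059.9 ± 767 normalized counts (SD, n = 5; limma adjusted p = 0.0325), though with 29.1 in cKO replicate 5. With that library left out, the log2 difference was 1.73 for Fst and 7.72 for Sostdc1 (limma adjusted p = 0.00599 and 0.00381). Fst was higher in every cKO library (2827 to 5759.6, the lowest in replicate 5) than in any control (824 to 2357). Such a separation was found in none of the 9 target genes, neither upward (all knockouts above all controls, 6.82% of genes tested) nor downward (4.6%).

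Of 12 receptor and co-receptor genes 3 rose and 2 fell (median 0.081), beside 4.61% and 2.87% of all genes tested. When cKO replicate 5 was left out, 5 rose and 2 fell (median 0.23), beside 12.4% and 10.1% of all genes tested. Acvr1, the type I receptor ALK2, had 3010.2, 3501, 3003 and 3376 in the controls and 1768, 1688, 1534, 1953 and 1634 in cKO replicates 1 to 5, a fall of 1.88-fold with no overlap (limma adjusted p = 0.00359). Neo1, a receptor that binds RGM co-receptors, fell 1.99-fold (limma adjusted p = 0.0187), while the co-receptor gene Rgmb rose 3.07-fold (limma adjusted p = 0.0142) and the type II receptor gene Acvr2b 4.33-fold (limma adjusted p = 0.0309). Hjv, a BMP co-receptor also expressed by skeletal muscle, went from 27.8 ± 48.4 (SD, n = 4) to 2079 ± 1921 (SD, n = 5; limma adjusted p = 0.0172), beside the muscle markers given above.

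Between receptor and target, none of the SMAD genes Smad1, Smad5 and Smad4 passed (limma, smallest unadjusted p = 0.0515 for Smad1, log2 difference -0.46; Smad5 0.072). None of 12 genes of SMAD turnover and co-repression passed either (median 0.23). The smallest p belonged to Ppm1a, a SMAD phosphatase gene (0.64, limma adjusted p = 0.0731), and Nedd4l, a ubiquitin ligase gene (1.37, limma adjusted p = 0.0754). Without cKO replicate 5, 4 of the 12 rose, where 12.4% of all genes tested did. Among 8 tested E protein and bHLH partner genes, on which ID proteins act, 1 rose, where 4.61% of all genes tested did. It was Myod1, the muscle determination factor (117 ± 115 and 2528 ± 1719, limma adjusted p = 0.00558), again beside muscle markers. With cKO replicate 5 left out, 2 of the 8 rose, beside the same 12.4% of all genes tested. TGF-beta target genes gave 1 of 9 lower, where 2.87% of all genes tested were. It was Pmepa1, a feedback inhibitor of TGF-beta SMADs (2.13-fold, limma adjusted p = 0.0129), and the median of the list was -0.18. Leaving out cKO replicate 5, 4 of the 9 were lower, where 10.1% of all genes tested were.

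**Figure D5:**
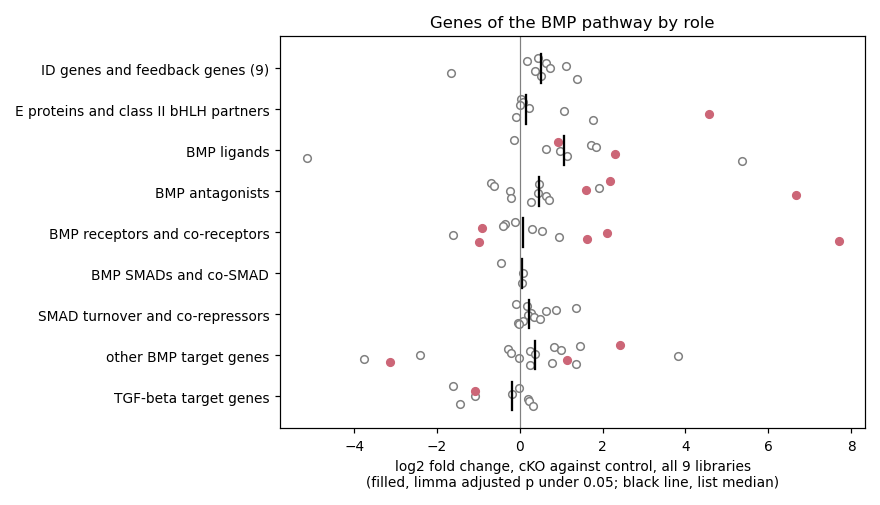
Log2 fold change of cKO against control over all 9 libraries (horizontal axis) for the tested genes of each list, with filled points for limma adjusted p under 0.05, open points for the rest and a black line at the list median. None of the 9 ID and feedback genes is filled, and Acvr1 and Neo1 are the filled points below 0 among the receptors.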

How the data were processed

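The deposited matrix gives normalized counts for 27179 Entrez IDs in 9 libraries, a signal that the authors scaled by a size factor for each library. STAR, featureCounts and DESeq2 and the build mm39 are named in the submitters' processing notes without versions; the annotation, strand setting and filters: not given in the sources used here. Their deposited comparison holds, per the file headers, mean normalized counts (signal), log2 fold changes with standard errors, a score and p-values.

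Groups and replicate numbers came from the titles. Symbols came from an NCBI gene table (GRCm38.p6, names only; 25275 IDs matched). Whole reads were recovered by dividing each column by its smallest value above 0 (tolerance 0.01 of a read; at least 99.99% of values above 0 came out whole), giving 43.5 to 87.2 M reads per library. Counting limits cover counting error only.

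Groups were compared with limma 3.58.1 (R 4.3.3; trend, two-sided) on log2(normalized count + 1), genotype as the only term, on the 15832 genes with at least 10 in at least 4 libraries, adjusted by Benjamini-Hochberg over all of them at 0.05. The fit was tested on simulated data. Pair ratios used exact permutation tests. Alternatives were pseudocounts of 0.5 and 5, no filter and one of 50, TMM, count tests on recovered reads (edgeR 4.0.16, DESeq2 1.42.0), quality weights, a block for replicate number and leaving out libraries.

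The 9 genes and all lists were chosen with earlier results of these data known. Named were the 9 genes, Grem1, up to 4 called genes per direction of each pathway list by smallest p (else the 2 of smallest p), and the genes most like each of the 9 (mean of at least 50, no predicted genes; the 3 closest were taken, of which mostly the first is given). The result of 1 antagonist gene is not reported here.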

Additional observations from a re-analysis of the deposited data

How the results depend on the processing

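The direction of all 9 genes was kept under pseudocounts of 0.5 and 5, without a filter, with a filter of 50, with TMM, weights, edgeR and DESeq2, with the replicate block and without any 1 library, and none of the 9 passed under pseudocounts, filters, TMM or edgeR. With library quality weights 3 passed (Id3 0.69, Id4 1.58, Atoh8 1.71; 25.6% of all genes did), and with DESeq2 on recovered reads 2 did (Id4 1.22, Atoh8 1.52; 16.5% of all genes). With a replicate block 4 passed (Id3 0.78, Id4 1.47, Smad6 1.12, Atoh8 1.81, where 17.1% of all genes did); cKO replicate 5 shares its number with no control and so drops out of that fit, and same-numbered libraries did not deviate together (r between -0.011 and 0.07), so the numbers were not taken as pairs. Leaving out each library in turn, between 0 and 4 genes passed as higher, the 4 only without cKO replicate 5, and the log2 fold change ranged from 0.43 to 0.78 for Id3, 0.86 to 1.47 for Id4, 0.39 to 1.12 for Smad6 and 1.11 to 1.81 for Atoh8. In cKO replicate 5 alone against the controls the sign turned for Id1 (-0.25), Id2 (-0.198), Id4 (-0.299), Smad6 (-0.81), Smad7 (-0.28), Bambi (-0.82) and Atoh8 (-0.34), and 1 gene passed as lower, Smad9 (-6.17). The cause was not tested.

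Over all genes the main counts were 1184 in all, 730 higher and 454 lower. They became 4056, 2237 and 1819 with weights, 2715, 1508 and 1207 with the replicate block, 2546, 1568 and 978 with DESeq2, 786 in all with 516 higher and 270 lower with edgeR, 338, 280 and 58 without control replicates 1 and 3, and 83, 65 and 18 for cKO replicate 5 alone. Leaving out each library in turn gave 377 to 3562 in all, 257 to 1963 higher and 120 to 1599 lower, the highest values without cKO replicate 5. No pair ratio passed under any alternative run. With libraries left out only 21 to 70 splits of the labels remained, so few that a pair could hardly pass after adjustment. Those runs cannot show that the ratios were alike. Nor can the runs on all libraries, where no pair could pass on its own. Depth limits Smad9, with 104 reads at most in a library.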
